A study of Homo sapiens with 6 samples.

Results

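The genes described here are 33 genes of protein folding, stress sensing and protein disposal in the endoplasmic reticulum (ER), chosen by symbol. All 33 were found among the 60564 rows of the count table, and all 33 passed the filter on low counts that left 17006 genes for testing. RNA came from A2780, a human ovarian cancer cell line, with 3 libraries labelled GPT2si and 3 labelled GPT2sinc. The series title concerns a deficiency of GPT2, the mitochondrial alanine aminotransferase, and the labels do not spell out si and sinc. The labels give no other allele, agent, dose or time, and they leave unsaid if the 3 libraries sharing a label were cultured separately, so each p-value reflects only library-to-library spread, part of which could be technical.

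Membrane and secreted proteins enter the ER through the Sec61 channel and fold there with the help of the HSP70 BiP (HSPA5), the HSP90 GRP94 (HSP90B1), the lectins calnexin and calreticulin, and protein disulfide isomerases. Unfolded proteins activate the sensors IRE1 (ERN1), ATF6 and PERK (EIF2AK3), which raise chaperone transcription through the factors XBP1 and ATF6 and lower translation through PERK. Proteins that do not fold are recognised by EDEM proteins and OS9 and sent to the cytosol through SEL1L, the ubiquitin ligase SYVN1 and the derlins, a route named ER-associated degradation.

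Many promoters of this response carry the ER stress element, which XBP1 and ATF6 can bind together with NF-Y. It joins CCAAT and CCACG with a gap of 9 bases (ERSE), or ATTGG and CCACG with a gap of 1 base (ERSE-II). Both were searched on both strands in RefSeq promoter windows on GRCh38.p14, each from 250 bases before to 50 bases after a transcript start. Windows were found for 30 of the 33 genes. ERSE occurred in 7 of these genes and ERSE-II in another 3, against 0.0916% and 0.0696% of the 27305 genes with a window. The sites are printed because they are the sequence feature that sets the genes named below apart in the promoter windows. Each line runs 5′ to 3′ along the gene's strand, and capitals mark the letters of the motif. In the reverse direction ERSE reads as CGTGG followed by ATTGG, and ERSE-II as CGTGG followed by CCAAT.
HSPA5, chr9:125241373-125241427, minus strand: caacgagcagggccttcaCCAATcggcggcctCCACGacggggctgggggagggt
HSP90B1, chr12:103930198-103930252, plus strand: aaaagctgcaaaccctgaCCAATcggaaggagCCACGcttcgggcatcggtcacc
HSP90B1, chr12:103930303-103930357, plus strand: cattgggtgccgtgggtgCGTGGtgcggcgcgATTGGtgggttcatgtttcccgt
CALR, chr19:12938366-12938420, plus strand: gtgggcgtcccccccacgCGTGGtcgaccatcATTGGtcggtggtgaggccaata
CANX, chr5:179698760-179698814, plus strand: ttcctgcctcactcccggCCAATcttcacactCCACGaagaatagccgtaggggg
PDIA6, chr2:10812835-10812889, minus strand: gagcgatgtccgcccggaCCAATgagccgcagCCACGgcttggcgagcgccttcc
CRELD2, chr22:49918536-49918590, plus strand: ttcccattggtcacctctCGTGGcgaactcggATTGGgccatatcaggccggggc
XBP1, chr22:28800585-28800639, minus strand: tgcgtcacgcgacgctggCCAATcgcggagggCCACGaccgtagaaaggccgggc
HYOU1, chr11:119057256-119057302, minus strand: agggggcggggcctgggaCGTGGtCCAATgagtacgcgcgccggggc
HYOU1, chr11:119057362-119057408, minus strand: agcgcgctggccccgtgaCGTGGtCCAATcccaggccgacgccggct
SDF2L1, chr22:21642096-21642142, plus strand: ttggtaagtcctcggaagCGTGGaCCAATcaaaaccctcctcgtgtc
HERPUD1, chr16:56932007-56932053, plus strand: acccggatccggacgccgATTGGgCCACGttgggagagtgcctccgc

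The sites lay between 34 and 225 bases before the transcript start, closest in XBP1 and farthest in CALR. HYOU1 and HSP90B1 held 2 sites each. The XBP1-binding element UPRE, searched as TGACGTGG on both strands, was found in 1 of the 30 genes with a window, HYOU1, where it overlaps the upstream ERSE-II site, against 0.927% of genes. A match is a string of letters and was not measured as a binding site here.

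GPT2 checked the labels. Its level was 236, 229.9 and 219 CPM (read counts scaled to library size and TMM factors) in GPT2sinc 1 to 3 and 93.8, 94.3 and 96.9 CPM in GPT2si 1 to 3. GPT2 thus fell by 1.26 on the log2 scale (SE 0.08; adjusted p = 0.000393 by edgeR's quasi-likelihood test with Benjamini-Hochberg adjustment). Total counts ran from 41931162 to 50882329 per library. Of 11 ovarian carcinoma and epithelial markers, 4 reached a mean of 1 CPM (KRT8, KRT18, FOLR1 and EPCAM). WT1 and KRT7 had no count, and PAX8, MUC16, CDH1, MSLN and SOX17 stayed under 1 CPM. Summed over the list, these markers reached 73.9 to 77.0 CPM in GPT2sinc and 79.2 to 99.9 CPM in GPT2si. Lists of endothelial and of leukocyte and plasma cell markers summed to at most 0.385 CPM, and 4 macrophage markers to 4.64 to 8.52 CPM. Fibroblast markers summed to 2857 to 3019 CPM in GPT2sinc and 2876 to 3062 CPM in GPT2si, most of it COL3A1. The collagen genes COL3A1, COL1A2 and COL1A1 had means of 2574, 252 and 123 CPM over the 6 libraries. The other fibroblast markers were low, with means of 8.90 CPM for PDGFRB, 3.93 for DCN and 0.231 for LUM. In bulk RNA, fewer cells of a type and less RNA per cell cannot be told apart.

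None of the 33 ER genes passed the test between GPT2si and GPT2sinc. The share of all 17006 tested genes that passed in either direction was 1.42%, and adjusted p of the 33 ran from 0.124 for WFS1 to 0.988 for CRELD2 (edgeR). At an unadjusted p under 0.05, 3 of the 33 were higher with GPT2si (WFS1, SEC61A1 and XBP1) and 3 were lower (EDEM1, HSPA5 and HSP90B1), where 10.3% of all tested genes were higher and 9.27% lower. These shares, 9.09% each, are near the background. With GPT2si 2, the library that stood apart most, left out, still 0 of the 33 passed. In that fit 377 of the 17525 tested genes were called higher and 459 lower. The median log2 fold change was -0.03 over the 33 genes and -0.01 over all tested genes, with 14 positive and 19 negative values.

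Fold changes were also bounded. The 95% intervals of all 33 lay inside 1 log2 unit on either side, the lowest bound being -0.73 for HSP90B1 and the highest 0.78 for WFS1. For 25 of the 33 the interval lay inside 0.5 log2 units. The plot of fold changes shows that most intervals include 0.

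**Figure D1:**
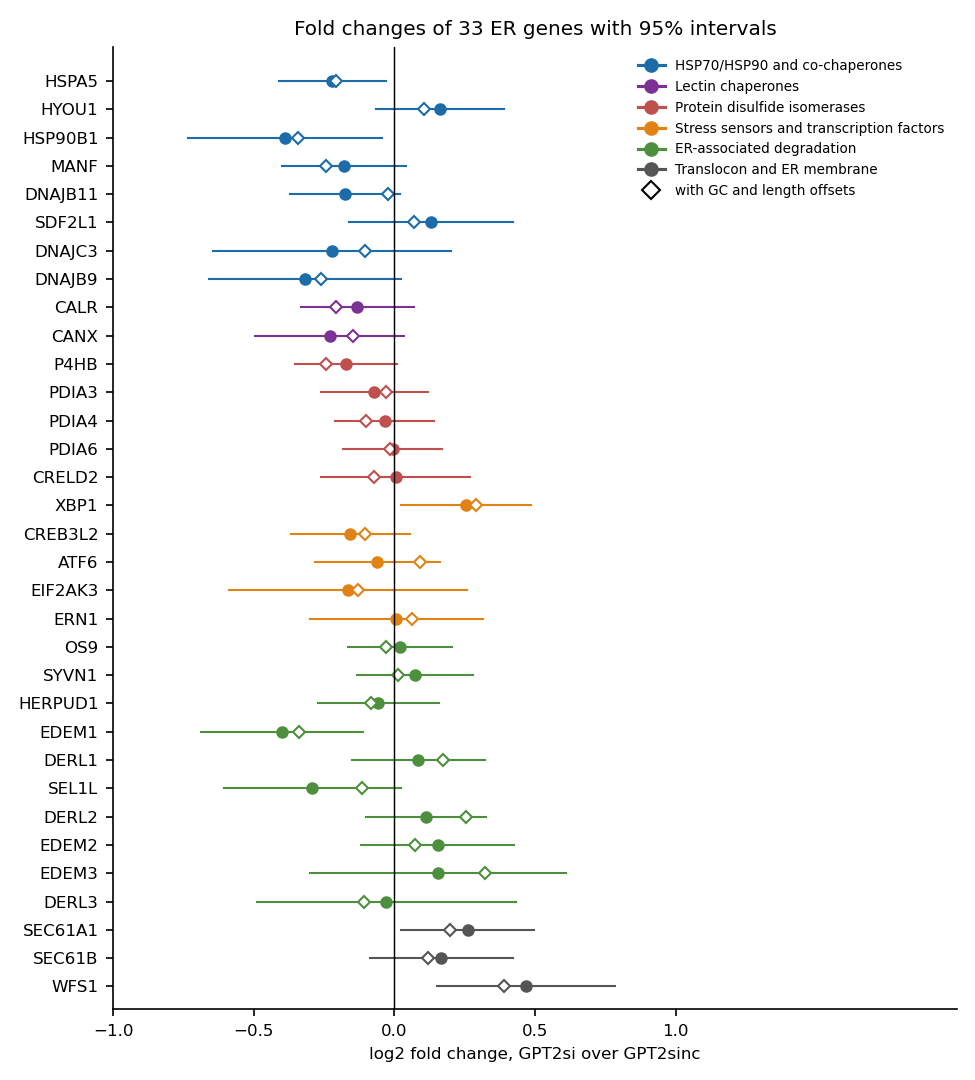
Log2 fold changes of GPT2si over GPT2sinc (x axis) for the 33 ER genes, ordered by role and then by CPM. Circles are edgeR estimates, lines their 95% intervals, and diamonds the estimates with GC and length offsets. WFS1 at 0.47 and EDEM1 at -0.40 lie farthest from 0.

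Groups that did not overlap were more often lower than higher among the 33. In 9 genes every GPT2si library lay below every GPT2sinc library (27.3%, against 13.2% of all tested genes), and in 3 every GPT2si library lay above (9.09%, against 14.9%). The 9 were HSPA5, HSP90B1, DNAJB9, DNAJB11, CANX, P4HB, CREB3L2, SEL1L and EDEM1, and the 3 were XBP1, SEC61A1 and WFS1. Whether this split differs from that of other genes was not tested.

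Mean CPM of the 33 genes ran from 3.28 for DERL3 to 2766 for CALR, as the plot of CPM by library shows. The order of levels is given per length, as TPM computed from the deposited counts and the merged exon length of each gene in GENCODE 29. CALR was the most abundant, with a mean of 3358 TPM over the 6 libraries and a range of 3029.6 to 3722. P4HB (997), HSPA5 (922), PDIA3 (718) and PDIA4 (704 TPM) followed. Among these 4 each range overlapped the next in order, but the range of P4HB lay above those of PDIA3 and PDIA4. The range of CALR did not overlap that of P4HB. At the other end were the sensors EIF2AK3 (8.22 TPM) and ERN1 (3.95 TPM), the co-chaperone DNAJB9 (5.01), EDEM3 (3.73) and DERL3 (2.83). ATF6 stood higher than the other 2 sensors, at 23.5 TPM. Together the 33 genes took 1.18%, 1.20% and 1.19% of all counts in GPT2sinc 1 to 3 and 1.09%, 1.03% and 1.07% in GPT2si 1 to 3. After scaling by TMM factors the sums were 11116, 11776 and 11968 against 11076, 11049.7 and 10646 CPM, so that GPT2si 1 lay only just under GPT2sinc 1. CALR alone gave 23.3% to 25.7% of the counts of the set in each library.

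**Figure D2:**
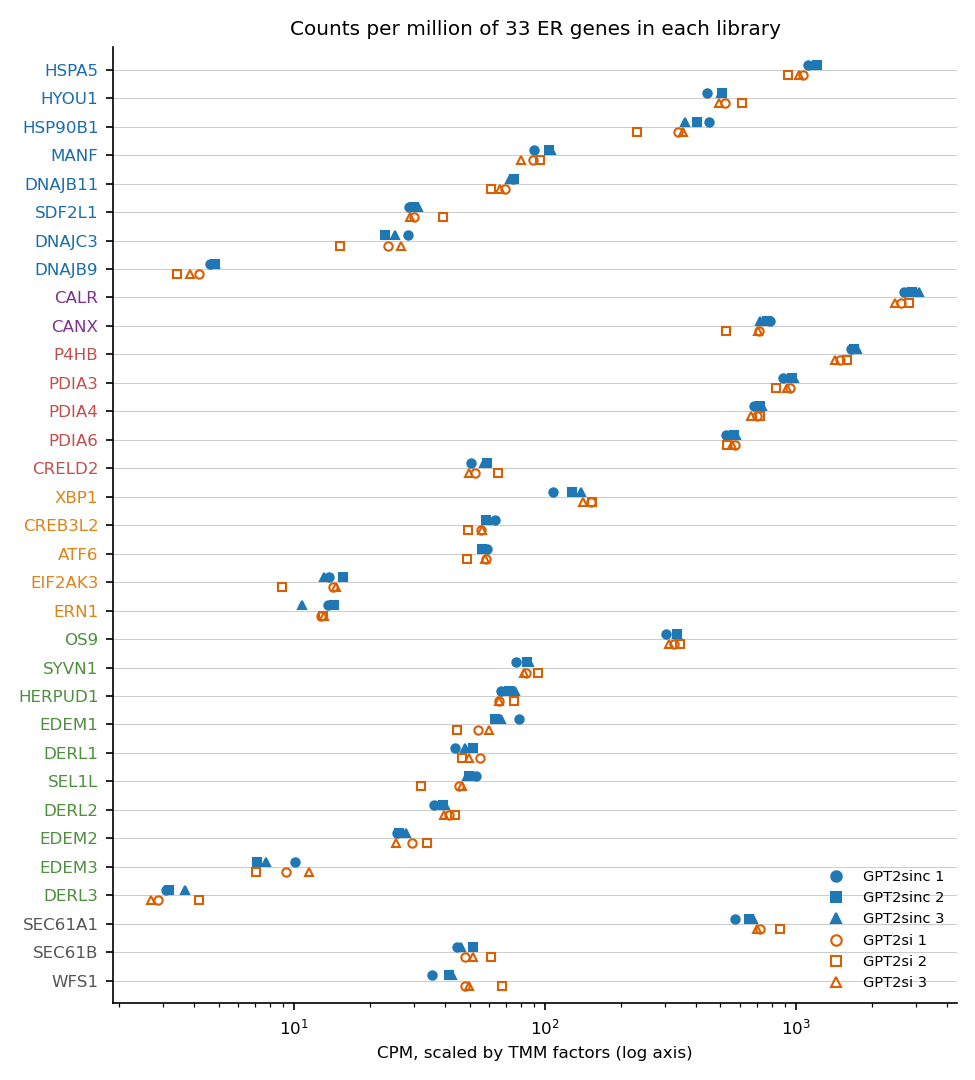
CPM of each of the 33 ER genes (x axis, log scale) in the 6 libraries, with filled blue symbols for GPT2sinc and open orange symbols for GPT2si, and replicate numbers by shape. Gene names are coloured by role, from chaperones at the top to the translocon and ER membrane at the bottom. GPT2si 2 (open squares) lies at an end of the range for many genes, as for HSP90B1 at 232 CPM.

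Among the HSP70 and HSP90 chaperones of the ER and their co-chaperones, 0 of 8 passed the test and 6 of 8 had negative log2 fold changes, with a median of -0.20. HSPA5, which encodes BiP and is the usual marker of the unfolded protein response (ENSG00000044574, chromosome 9, 125234853 to 125241330, minus strand, GRCh38), was at 1117, 1208 and 1189.7 CPM in GPT2sinc and 1064, 928 and 1024 CPM in GPT2si. All 3 GPT2si libraries were below all 3 GPT2sinc libraries, with a gap between the groups smaller than the range within either. HSPA5 had a log2 fold change of -0.22 (SE 0.08; adjusted p = 0.198, edgeR), with a 95% interval from -0.41 to -0.03.

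HSP90B1, which encodes GRP94 (ENSG00000166598, chromosome 12, 103930107 to 103953645, plus strand), was at 449.7, 403 and 362 CPM in GPT2sinc and 340.1, 232 and 355 CPM in GPT2si. The groups did not overlap, but GPT2si 3 came close to GPT2sinc 3, and GPT2si 2 was far below the other 5 libraries. HSP90B1 had a log2 fold change of -0.39 (SE 0.15; adjusted p = 0.208, edgeR), and -0.24 without GPT2si 2.

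The BiP co-chaperones with a J domain had lower values as well. DNAJB9 (ERdj4), a J protein of ER stress, had 4.62, 4.84 and 4.83 CPM in GPT2sinc and 4.20, 3.41 and 3.84 CPM in GPT2si. DNAJB11 (ERdj3), which hands unfolded clients to BiP, had 74.3, 75.0 and 72.7 against 69.3, 60.9 and 66.4 CPM. In both the groups were apart, and GPT2si 2 was the lowest library. Their log2 fold changes were -0.32 (SE 0.15) and -0.18 (SE 0.09), with adjusted p = 0.287 and 0.298 (edgeR). DNAJC3 (p58IPK) was at -0.22 (SE 0.19), with GPT2si 2 at 15.3 CPM and the other libraries at 23.0 to 28.5 CPM, and its value was -0.03 without GPT2si 2.

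MANF, a secreted ER stress protein that binds BiP, was at 90.7, 103 and 106 CPM against 89.6, 95.2 and 80.1 CPM. Its groups overlapped, and its log2 fold change was -0.18 (SE 0.10). The 2 positive values of this group belonged to HYOU1, the large HSP70 relative that exchanges the nucleotide of BiP (0.16, SE 0.10), and SDF2L1, a partner of DNAJB11 (0.13, SE 0.13). In both GPT2si 2 was the highest of the 6 libraries, at 610.2 and 39.3 CPM, and the groups overlapped. Without GPT2si 2 HYOU1 was at 0.06 and SDF2L1 at -0.03.

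Both lectin chaperones had negative values. CALR, the soluble calcium-binding lectin, was at 2691, 2906 and 3080.0 CPM in GPT2sinc and 2631, 2810.1 and 2475 CPM in GPT2si, with overlapping groups (-0.13, SE 0.09; adjusted p = 0.440, edgeR). CANX, its membrane-bound relative, was at 791, 769 and 718 against 712, 526 and 704 CPM. The groups of CANX did not overlap, GPT2si 2 being the library that stood apart (-0.23, SE 0.12; adjusted p = 0.315, edgeR). Without it the log2 fold change of CANX was -0.11.

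The disulfide isomerases differed little between the groups, with log2 fold changes from -0.17 to 0.00 and a median of -0.03 over 5 genes. P4HB, an isomerase that is also the beta subunit of collagen prolyl hydroxylase, was at 1649, 1696 and 1747 CPM in GPT2sinc and 1503, 1594 and 1424 CPM in GPT2si. Here the groups were apart while GPT2si 2 was the highest library of its group (-0.17, SE 0.08; adjusted p = 0.277, edgeR). PDIA3 (ERp57), the partner of the lectin chaperones, was at 891, 961 and 982 against 943, 835 and 921 CPM. PDIA4 was at 678, 716 and 731 against 698, 717 and 660.1 CPM. Both overlapped, at -0.07 and -0.03 (SE 0.08 each), and PDIA6 and CRELD2 were at -0.01 and 0.00 (SE 0.08 and 0.12). PDIA3 has a processed copy, PDIA3P1, with 5831 counts over the 6 libraries against 250219 for PDIA3, and the treatment of shared reads is not given.

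Among sensors and transcription factors, XBP1 had the largest value. XBP1 (ENSG00000100219, chromosome 22, 28794555 to 28800597, minus strand) encodes the factor whose mRNA is spliced by IRE1, and the gene counts do not separate its spliced from its unspliced form. It was at 108, 128 and 139 CPM in GPT2sinc and 153, 153 and 142 CPM in GPT2si. All GPT2si libraries were above all GPT2sinc libraries, although GPT2sinc 3 and GPT2si 3 nearly met (0.26, SE 0.10; adjusted p = 0.218, edgeR). Without GPT2sinc 1, the lowest library, XBP1 was at 0.16. Values for the 3 sensors were smaller than their intervals: -0.06 (SE 0.10) for ATF6, -0.16 (SE 0.19) for EIF2AK3 and 0.01 (SE 0.14) for ERN1. EIF2AK3 was at 8.95 CPM in GPT2si 2 and at 13.2 to 15.7 CPM elsewhere, and its value without that library was 0.02. CREB3L2, an ER-bound factor related to ATF6, was at -0.16 (SE 0.09) with groups that did not overlap.

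Of the 10 genes of ER-associated degradation 6 had positive and 4 negative values, and none passed. EDEM1 (ENSG00000134109, chromosome 3, 5187646 to 5219957, plus strand), which promotes mannose trimming of misfolded glycoproteins, was at 78.9, 63.5 and 66.6 CPM in GPT2sinc and 54.0, 44.7 and 59.7 CPM in GPT2si. No library of one group reached the other (-0.40, SE 0.13; adjusted p = 0.140, edgeR). Its relatives EDEM2 and EDEM3 were at 0.15 and 0.16 (SE 0.12 and 0.20) with overlapping groups, at 0.03 without GPT2si 2 for EDEM2 and -0.02 without GPT2si 3 for EDEM3, and the difference between the 3 was not tested. SEL1L, the scaffold of the SYVN1 ligase, was at 52.9, 49.9 and 49.0 against 45.5, 32.0 and 46.5 CPM. GPT2si 2 was far below the other 2 GPT2si libraries (-0.29, SE 0.14; adjusted p = 0.289, edgeR), and without it the value was -0.15.

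The ligase SYVN1 itself (0.07, SE 0.09), the lectin OS9 (0.02, SE 0.08), the membrane protein HERPUD1 (-0.06, SE 0.10) and the derlins DERL1, DERL2 and DERL3 (0.09, 0.11 and -0.03, SE 0.11, 0.10 and 0.21) had overlapping groups. SYVN1 shares 398 exonic bases with the abundant gene FAU on its own strand. Of the 3796 exonic bases of DERL3, 2923 are also exonic in SMARCB1 on the opposite strand, which had 52057 counts over the 6 libraries against 878 for DERL3. In all, 18 of the 33 genes share exonic bases with a gene on the other strand, and in 3 (DERL3, SYVN1 and DNAJB9) such a neighbour had more counts. Whether the counting used strand is not given here, so these 3 values are uncertain.

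The translocon and membrane genes were the ones with positive values throughout. WFS1, an ER membrane protein that limits ER stress and is altered in Wolfram syndrome (ENSG00000109501, chromosome 4, 6269849 to 6303265, plus strand, GRCh38), was at 35.5, 41.4 and 42.4 CPM in GPT2sinc. In GPT2si it was at 48.0, 67.1 and 49.9 CPM. The groups were apart and GPT2si 2 was the highest library (0.47, SE 0.14; adjusted p = 0.124, edgeR). Without GPT2si 2 the log2 fold change of WFS1 was 0.29. SEC61A1, the pore of the translocon, was at 572, 651 and 674 against 718, 859 and 696 CPM, with groups apart by less than the spread within either (0.26, SE 0.11; adjusted p = 0.216, edgeR). Without GPT2si 2 its value was 0.15. SEC61B, the small beta subunit, was at 0.17 (SE 0.11) with overlapping groups, and at 0.05 without GPT2si 2.

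One library, GPT2si 2, carried the extreme value in 25 of the 33 genes, the highest in 12 and the lowest in 13. The same count was not made over all tested genes, so it is not read as a trait of these 33. The deviation of each gene from its 6-library mean in GPT2si 2 followed the GC content of its longest transcript (r = 0.74, rho = 0.74 over the 33 genes). The same r was -0.52, -0.24 and -0.06 in GPT2sinc 1 to 3 and -0.39 and -0.51 in GPT2si 1 and 3. Over the 16825 tested genes with a sequence it was 0.43 in GPT2si 2 and -0.24 to 0.02 in the other libraries. These are correlations across genes of the same libraries, which are not independent replicates. The fold changes of the 33 genes followed GC content as well (r = 0.42, rho = 0.41), with 12 of 16 genes below the median GC of 47.9% negative and 7 of 17 at or above it.

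**Figure D3:**
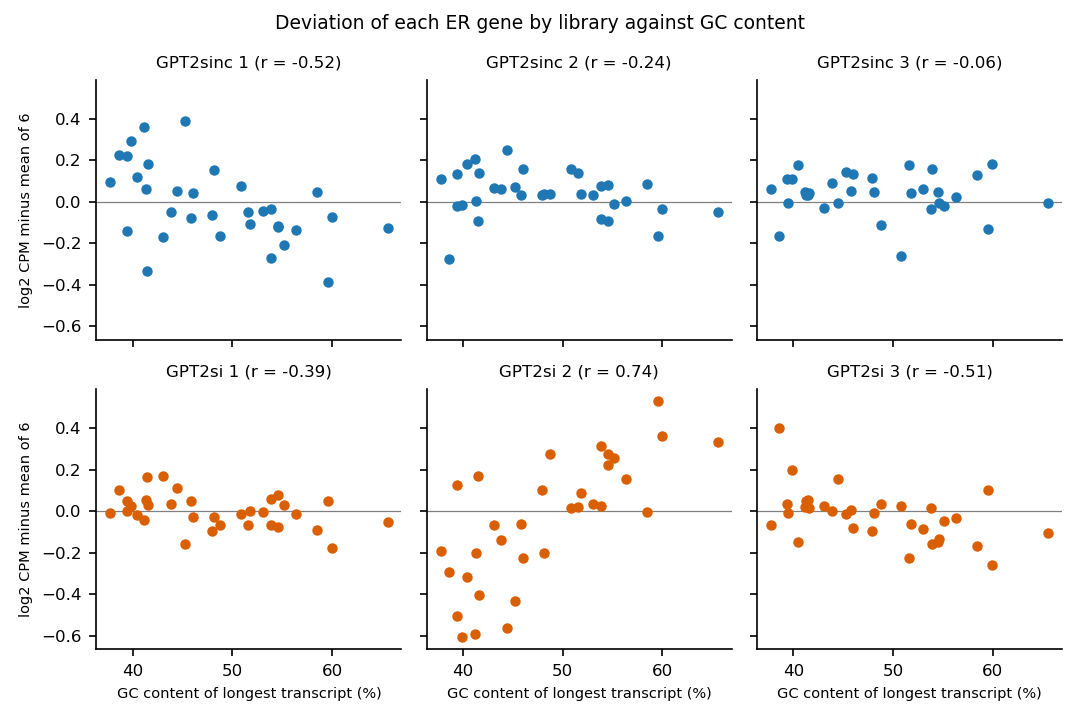
Deviation of log2 CPM from the mean of the 6 libraries (y axis) against the GC content of the longest transcript (x axis, percent), 1 panel per library and 1 point per ER gene, blue for GPT2sinc and orange for GPT2si. The points rise from left to right in GPT2si 2 (r = 0.74) and not in the other 5 panels.

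With GC and length trends of each library removed as offsets in edgeR, the calls among the 33 genes changed. Then 6 genes were lower, 18.2% of the 33 against 6.09% of all genes in that fit, and 1 was higher, 3.03% against 6.72%. The lower genes were HSPA5 (-0.21, adjusted p = 0.0429, edgeR), HSP90B1 (-0.34, 0.0392), MANF (-0.24, 0.0330), CALR (-0.21, 0.0375), P4HB (-0.24, 0.0275) and EDEM1 (-0.34, 0.0207), and the higher one was WFS1 (0.39, 0.0197). With a replicate block added to the offsets HSPA5, MANF, CALR and P4HB no longer passed (adjusted p = 0.112, 0.0521, 0.131 and 0.0692, edgeR), while HSP90B1, EDEM1 and WFS1 did. The offsets moved other estimates in both directions, from -0.18 to -0.02 for DNAJB11 and -0.29 to -0.11 for SEL1L, but from 0.16 to 0.32 for EDEM3, 0.11 to 0.25 for DERL2 and -0.06 to 0.09 for ATF6. The correlation of fold change with GC content was then 0.05. By the DESeq2 Wald test, without offsets, WFS1 alone passed (0.48, adjusted p = 0.0357). That is 3.03% of the 33 genes, against 3.35% of all tested genes called higher.

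The 10 genes with an ERSE or ERSE-II match had fold changes on both sides of 0. Their median log2 fold change was -0.03, from -0.39 for HSP90B1 to 0.26 for XBP1, with 6 negative. The 20 genes with a window and no match had a median of -0.05, with 11 negative. HSP90B1 and HYOU1, with 2 sites each, were at -0.39 and 0.16. The 7 genes with ERSE had a median of -0.13 and the 3 with ERSE-II one of 0.13.

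Other ER genes were read from 9 lists with 134 genes, of which 132 were tested (CREB3L3 and RETREG1 were too low). Of these 1 rose and 0 fell, and the median log2 fold change was 0.05. At an unadjusted p under 0.05, 16 were higher and 6 lower (edgeR), 12.1% and 4.55% of the 132 against 10.3% and 9.27% of all tested genes. The DESeq2 Wald test called 6 higher (4.55%, against 3.35%) and 2 lower, against 2.89% of all tested genes called lower. By edgeR with GC and length offsets 15 were higher (11.4%, against 6.72% of all genes in that fit) and 5 lower (3.79%, against 6.09%). SRPRB, the membrane subunit of the signal recognition particle receptor, which docks ribosomes at the ER, rose from 30.5, 34.9 and 37.7 CPM to 56.7, 56.9 and 46.1 CPM. No GPT2si library overlapped GPT2sinc (0.63, SE 0.12; adjusted p = 0.0468, edgeR). SRPRB did not pass without GPT2sinc 1, 2 or 3 or without GPT2si 1 (adjusted p = 0.231, 0.187, 0.115 and 0.183), nor with DESeq2 size factors (0.05003, just over the threshold) or with no low-count filter (0.104). Over all alternatives its adjusted p ran from 0.000319 to 0.231.

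The PERK and ATF4 branch had 0 of 11 genes past the test and a median of 0.17, with 9 positive. At an unadjusted p under 0.05 edgeR had 3 of them higher (27.3%, against 10.3% of all tested genes), and DESeq2 called 2 higher, TRIB3 and EIF2S1 (18.2%, against 3.35%). ATF4, its translated effector, was at 881 ± 69.9 against 1003 ± 73.2 CPM (SD, n = 3 each; 0.19, SE 0.09). TRIB3, a pseudokinase induced by ATF4, was at 0.40 (SE 0.11) and the stress factor DDIT3 (CHOP) at -0.11 (SE 0.13). Neither passed by edgeR, while TRIB3 passed by DESeq2 (adjusted p = 0.0343) and in edgeR with GC and length offsets (0.00736). With those offsets 3 of the 11 were higher (27.3%, against 6.72% of all genes in that fit) and 0 lower. Among 16 oxidative folding enzymes 0 passed by edgeR, while DESeq2 called TMX2 higher and ERO1A lower (adjusted p = 0.0186 and 0.00844). Each call is 1 gene, 6.25% of the 16, where DESeq2 called 3.35% of all tested genes higher and 2.89% lower. ERO1A, the oxidase that recharges P4HB and is also induced by low oxygen, was at 328, 251 and 247 CPM in GPT2sinc and 194, 111 and 199.6 CPM in GPT2si. Those groups were apart (-0.71, SE 0.21; adjusted p = 0.115, edgeR), and GPT2si 2 was again the lowest library. The thioredoxin-related gene TMX2 was at 0.42 (SE 0.11) and the abundant ERP29 at 0.19 (SE 0.09).

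In the remaining lists 0 of 15 genes of N-glycan processing, 0 of 17 other chaperone factors, 0 of 21 further degradation factors, 0 of 10 factors of ATF6 processing, 0 of 16 of retrieval and export and 0 of 7 ER-phagy receptors passed by edgeR. Among the 21 degradation factors DESeq2 called 2 higher (AUP1 and SELENOS), 9.52% against 3.35% of all tested genes. It called 1 lower (NGLY1, adjusted p = 0.00195), against 2.89% of all tested genes. By edgeR with offsets 3 were higher (14.3%, against 6.72% of all genes in that fit) and 2 lower (9.52%, against 6.09%). NGLY1, the cytosolic enzyme that removes N-glycans from retrotranslocated proteins, was at 52.9, 46.2 and 40.1 against 32.0, 20.6 and 31.8 CPM (-0.72, SE 0.18; adjusted p = 0.0777, edgeR). Its GPT2si libraries were all below the GPT2sinc libraries. VCP, the ATPase that pulls such proteins from the membrane, was at 0.18 (SE 0.10). GANAB, glucosidase II, was at 0.08 (SE 0.09), DAD1, a subunit of the oligosaccharyltransferase, at 0.33 (SE 0.11), and the retrieval receptor KDELR1 at 0.07 (SE 0.11). FKBP10, a prolyl isomerase of collagen, was at 0.06 (SE 0.09) and CRELD1, the relative of CRELD2, at -0.29 (SE 0.09). MBTPS1, the protease that cuts ATF6, was at 0.08 (SE 0.08), and ERN2, the second IRE1 gene, was low at 1.58 ± 0.223 against 0.868 ± 0.125 CPM (SD, n = 3 each; -0.86, SE 0.24). SSR2, a translocon subunit, was at 0.19 (SE 0.11), SEC16A of ER exit sites at 0.24 (SE 0.09), and the ER-phagy receptors RTN3 and CCPG1 at -0.06 and -0.44 (SE 0.08 and 0.25).

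**Figure D4:**
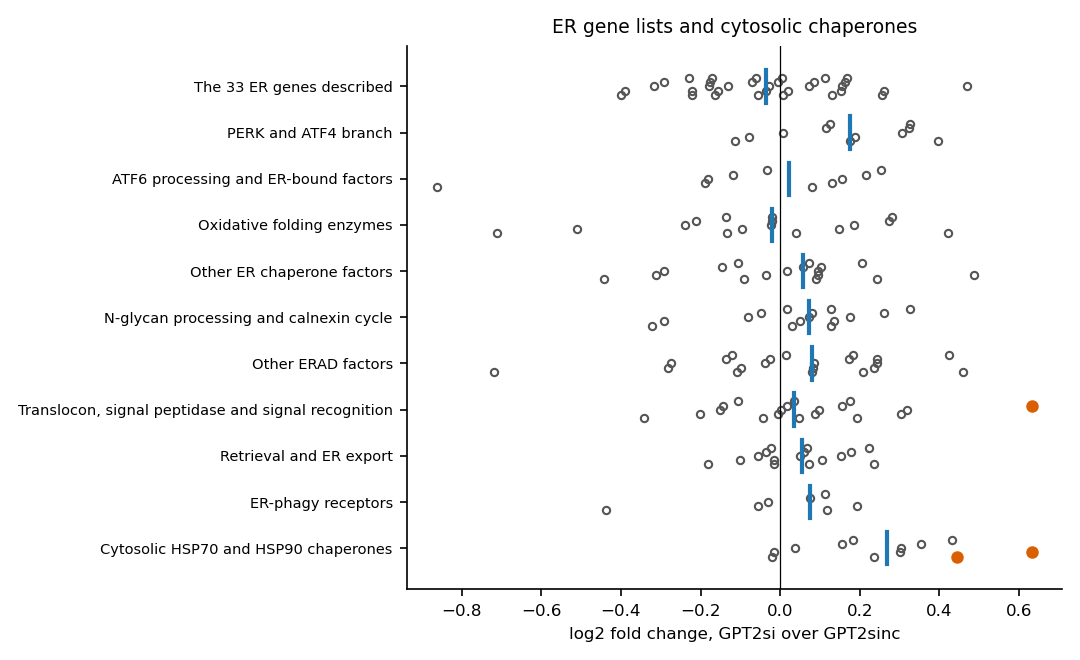
Log2 fold changes of GPT2si over GPT2sinc (x axis) for the tested genes of each list (rows), 1 circle per gene, filled orange where the edgeR adjusted p was under 0.05, with a blue bar at the median. The 33 ER genes centre at -0.03 with no filled circle, and the cytosolic chaperones at 0.27 with 2.

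Cytosolic chaperones of the HSP70 and HSP90 families were set beside the ER genes. Their list also holds DNAJA1, DNAJB1, BAG3, STIP1 and HSPB1, which belong to neither family. The 33 ER genes include sensors, degradation and translocon genes, so the 2 sets are not matched by family. Of the 12 cytosolic genes in the list 2 rose (HSPA8 and HSPA1B) and 0 fell, with a median of 0.27. For the 33 ER genes these were 0 and -0.03, and 1.42% of all tested genes were called in either direction. At an unadjusted p under 0.05, 6 of the 12 were higher and 0 lower (edgeR), against 10.3% and 9.27% of all tested genes. The DESeq2 Wald test called 3 of the 12 higher, against 3.35%, and 0 lower. With GC and length offsets edgeR called 7 higher, against 6.72% of all genes in that fit, and 0 lower. In 7 every GPT2si library lay above every GPT2sinc library, against 14.9% of all tested genes. Whether the list as a whole differs from other genes was not tested. HSPA8 was at 0.63 (SE 0.10; adjusted p = 0.0250, edgeR) and HSPA1B at 0.44 (SE 0.09; adjusted p = 0.0468), and HSPA1B has a near-identical copy, HSPA1A, so its count is uncertain. Neither passed without GPT2sinc 1, 2 or 3 or without GPT2si 1, where adjusted p of HSPA8 was 0.105, 0.141, 0.0720 and 0.131 and that of HSPA1B 0.236, 0.185, 0.138 and 0.174. HSPA1B also missed the threshold without GPT2si 3 (adjusted p = 0.0602, edgeR) and with DESeq2 size factors (0.0532). With no low-count filter neither passed (0.0604 for HSPA8 and 0.104 for HSPA1B). Over all alternatives adjusted p ran from 6.35e-06 to 0.141 for HSPA8 and from 0.00121 to 0.236 for HSPA1B, both low ends by the DESeq2 Wald test. The log2 ratio of HSPA5 to the cytosolic HSPA8 was 0.45, 0.34 and 0.21 in GPT2sinc and -0.53, -0.56 and -0.49 in GPT2si. These are ratios of counts, not per length, and every GPT2si library lay below every GPT2sinc library. The log2 ratio of HSP90B1 to HSP90AB1 was -2.10, -2.44 and -2.57 against -2.72, -3.19 and -2.54, and that of HYOU1 to HSPH1 was 3.20, 3.44 and 3.62 against 3.09, 3.83 and 2.83. Both of these overlapped between the groups. The 3 pairs were chosen after their values were seen, and the difference was not tested.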

How the data were processed

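The table holds raw read counts as deposited by the authors, whole numbers for each Ensembl gene and library. Per the labels' protocols, libraries were poly(A)-selected, strand-specific (dUTP) and amplified by PCR. The submitters' processing notes list CASAVA and StringTie with neither role nor version. Aligner, counter, strandedness of counting, build and annotation: not given in the sources used here. All 6 columns were matched to libraries by name, and 0 were left unmapped. PCR reads are not independent molecules.

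Groups were compared with edgeR 4.0.16 (R 4.3.3; TMM, filterByExpr, glmQLFit and glmQLFTest, group only), with Benjamini-Hochberg adjustment over 17006 genes and a threshold of 0.05. Standard errors came from the F statistic. Centred values use log2 CPM with a prior count of 2. GENCODE 29 (GRCh38) gave exon lengths, positions and GC content, and RefSeq (GRCh38.p14) the promoters. The test was checked on simulated counts.

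The members and lists were chosen with earlier results of these data known. Values per library are given for genes past the test, the 12 members with the smallest p and the 6 with the highest CPM. In each other list, genes past the test are named, or else the gene with the smallest p and the most abundant one. Other genes named, and the 3 pairs of ER and cytosolic chaperones, were chosen after their values were seen. No 2 libraries agreed within sampling noise (chi-square per degree of freedom at least 8.03). Alternatives used other scalings and filters, DESeq2 1.42.0, limma-voom (limma 3.58.1), a replicate block, GC and length offsets (loess, span 0.5, covering 98.9% of tested genes), and each library left out.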

Additional observations from a re-analysis of the deposited data

How the results depend on the processing

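None of the 33 genes passed under 12 of 15 alternatives. With DESeq2 1 was higher and 0 lower, with GC and length offsets 1 higher and 6 lower, and with these offsets and a replicate block 1 higher (WFS1) and 2 lower (HSP90B1 and EDEM1). Over all genes, 98 higher and 143 lower became 61 higher with DESeq2 size factors, 17 and 27 without a low-count filter, 569 and 491 with DESeq2, 1130 and 1024 with offsets, and 252 and 306 with the replicate block (1009 and 888 with offsets too). Leaving out 1 library gave 0 to 377 higher and 1 to 459 lower, the high ends without GPT2si 2. No pairing by replicate number was evident: deviations of same-numbered libraries correlated at 0.09, 0.11 and -0.19. With 3 libraries in each group these values cannot exclude a pairing, and the labels do not state one. GPT2 passed under every alternative.

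Signs changed in 10 of the 33 genes, 0 of them past the threshold in any fit that changed the sign. With upper-quartile factors CRELD2 was at -0.042, ERN1 at -0.039 and OS9 at -0.027. With the filter of 1 CPM in at least 3 libraries CRELD2 was at -0.0035 and ERN1 at -0.00084. CRELD2 was at -0.0049 with limma-voom and -0.0012 with the replicate block. With offsets CRELD2, ATF6 and OS9 were at -0.072, 0.091 and -0.0284, and with offsets and the block at -0.073, 0.0904 and -0.0280. Leaving out 1 library in turn gave ranges across 0 for these genes: -0.032 to 0.21 for SDF2L1, -0.047 to 0.020 for PDIA6, -0.13 to 0.079 for CRELD2, -0.11 to 0.093 for ERN1, -0.11 to 0.0041 for ATF6, -0.28 to 0.017 for EIF2AK3, -0.0011 to 0.11 for SYVN1, -0.024 to 0.32 for EDEM3, -0.034 to 0.055 for OS9 and -0.26 to 0.090 for DERL3.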

Other observations

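Outside the 33 genes, 34 genes held an ERSE or ERSE-II match in a RefSeq promoter window, and 21 of them were tested. By edgeR 0 passed, against 1.42% of all tested genes. At an unadjusted p under 0.05 0 were higher and 2 lower (edgeR), where 10.3% of all tested genes were higher and 9.27% lower. Their median log2 fold change was -0.05, from -0.76 to 0.65. One of the 2 lower genes was ERO1B, an oxidase of disulfide formation, at 6.30, 5.55 and 5.35 CPM in GPT2sinc and 4.20, 3.41 and 4.46 CPM in GPT2si (-0.51, SE 0.16; adjusted p = 0.138, edgeR). The other was GYS1, the muscle-type glycogen synthase, at 463, 461 and 473 CPM against 369.7, 389 and 352 CPM (-0.33, SE 0.08; adjusted p = 0.0703, edgeR). In both, all GPT2si libraries were below all GPT2sinc libraries, as in 13.2% of all tested genes. FICD, the enzyme that AMPylates BiP, was at -0.08 (SE 0.15), and ALG12, a mannosyltransferase that shares its promoter site with CRELD2, at 0.09 (SE 0.10).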
